A study of Homo sapiens with 15 samples.

Results

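The miR-15/miR-16 family, with miR-195-5p and miR-497-5p, was followed through miRNA-Seq libraries of U87-MG cells, an established human glioblastoma line. Its 7 mature members were taken by name from the deposited counts, which list 1707 mature miRNAs: hsa-miR-15a-5p, hsa-miR-15b-5p, hsa-miR-15b-3p, hsa-miR-16-5p, hsa-miR-16-2-3p, hsa-miR-195-5p and hsa-miR-497-5p. The rule names members and uses no threshold on their values.

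The libraries formed 5 groups of 3 replicates. Control cells (labelled WT, with neither gene targeted) were kept in 21% O2 (normoxia) or in 1% O2 (hypoxia), and cells with Hif1a knock-out (HIF1α-KO), Hif2a knock-out (HIF2α-KO) or Hif1a Hif2a knock-out (HIF1α/HIF2α-KO, the double knockout) were kept in 1% O2, each for 24 h. HIF1α and HIF2α are the oxygen-regulated subunits of the hypoxia-inducible transcription factors. The knockouts were made with a lentiviral CRISPR vector carrying Cas9 and a guide RNA. In comparisons with control cells, effects of the vector and of losing HIF1α or HIF2α cannot be told apart, because no control cells given the vector are named. The sources used here do not say whether the cells were single clones or pools. They also do not say that replicates were separate cultures, so the p-values below measure the spread between these libraries, which may be technical. Small RNA libraries hold no HIF1A or EPAS1 transcripts, and the loss of either factor was therefore not checked here. The study reported successful knockout of both by immunofluorescence, shown for its GBM1 cells. Its methods name immunofluorescence or western blotting for this check.

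A microRNA is cut from a hairpin precursor as a duplex of a 5p and a 3p strand, and the strand kept by an Argonaute protein pairs with messenger RNAs mainly through its seed, bases 2 to 8. MicroRNAs with the same seed can repress overlapping sets of targets. The miR-15/16 family is known for restraining the cell cycle, with cyclins and BCL2 among its textbook targets, and the cluster on chromosome 13 is often deleted in chronic lymphocytic leukaemia.

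Mature sequences of all 7 members were found in RefSeq (GRCh38.p14). They are shown because they tell which members share a seed, and are written 5′ to 3′ with bases 2 to 8 in capitals.
hsa-miR-15a-5p: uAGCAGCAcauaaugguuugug
hsa-miR-15b-5p: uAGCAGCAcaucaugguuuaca
hsa-miR-16-5p: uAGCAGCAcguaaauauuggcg
hsa-miR-195-5p: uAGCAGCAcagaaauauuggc
hsa-miR-497-5p: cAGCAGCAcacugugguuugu
hsa-miR-15b-3p: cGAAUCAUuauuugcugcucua
hsa-miR-16-2-3p: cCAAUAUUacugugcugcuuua
All 5 of the 5p strands carried the same seed, whereas each 3p strand had a seed of its own. In the RefSeq table this seed was found in 7 of 2370 mature names, and the other two were miR-424-5p and miR-6838-5p. Outside the seed the 5p strands differed. Counted position by position from the 5′ end, miR-16-5p and miR-195-5p were identical at 19 of 21 positions, miR-15a-5p and miR-15b-5p at 18 of 22, and miR-16-5p and miR-497-5p at 11 of 21.

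The members come from 3 pairs of neighbouring hairpins (GRCh38). On chromosome 3, MIR15B (chr3:160404588-160404685, plus strand) and MIR16-2 (chr3:160404745-160404825, plus strand) are separated by 59 bases and lie in an intron of SMC4, a condensin subunit gene, in each of the 13 annotated transcripts that span them (GENCODE v29). On chromosome 13, MIR16-1 (chr13:50048973-50049061, minus strand) and MIR15A (chr13:50049119-50049201, minus strand) are separated by 57 bases and lie in an intron of the non-coding gene DLEU2 in each of the 6 spanning transcripts. On chromosome 17, MIR195 (chr17:7017615-7017701, minus strand) and MIR497 (chr17:7017911-7018022, minus strand) are separated by 209 bases within MIR497HG, in an intron of 1 of its 2 transcripts and in an exon of the other. MIR16-1 and MIR16-2 release the same miR-16-5p, so its counts cannot be assigned to a locus. The chromosome 3 hairpins are shown because both arms of each were counted, with the mature arms in capitals.
MIR15B: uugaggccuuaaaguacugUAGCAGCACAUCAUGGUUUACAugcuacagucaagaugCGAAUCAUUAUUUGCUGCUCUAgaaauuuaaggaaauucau
MIR16-2: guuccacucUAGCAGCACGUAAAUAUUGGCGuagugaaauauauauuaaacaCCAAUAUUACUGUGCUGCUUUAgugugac

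Library totals ranged from 10360337 to 22496373 counts, of which the 7 members together took 0.161% to 0.229%. Levels are given as CPM, counts divided by the library size after TMM scaling, which corrects that size for composition. The scaling factors of the 3 HIF2α-KO libraries were the lowest of all, 0.898 to 0.949, against 0.954 to 1.09 elsewhere. The glioblastoma markers miR-21-5p and miR-10b-5p were abundant in each library (at least 160475 and 2258 CPM), whereas the neuronal miR-124-3p had at most 6 counts. The other neuronal marker, miR-9-5p, reached 1829 to 9462 CPM. Its lowest value was that of HIF1α-KO replicate 3, against 6124 and 6329 CPM in the other libraries of that group. HIF1α-KO replicate 3 also stood apart over all miRNAs, with a chi-square per degree of freedom of 1122 and 854 against its own replicates and at most 454.6 between any other replicates. Values without it are given for some of the HIF1α-KO results below. The endothelial miR-126-3p and miR-126-5p together ranged from 4.01 to 50.8 CPM and split the libraries at their widest gap on the log2 scale into a higher set of 9 and a lower set of 6, and the erythroid miR-451a ranged from 2.10 to 18.3 CPM. The other erythroid and leukocyte markers examined stayed at or below 3.13 CPM, and miR-486-5p had at most 1 count. The part of such cells in the results was not tested, and values by miR-126 set are given below. The 3 normoxic libraries fell in the higher set, and each hypoxic group held libraries of both.

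miR-16-5p was by far the most abundant member in every group, followed by miR-16-2-3p, miR-15b-5p and miR-15b-3p, while miR-15a-5p, miR-195-5p and miR-497-5p were the lowest. Over the 15 libraries the median level was 1198 CPM for miR-16-5p, 303 CPM for miR-16-2-3p, 174 CPM for miR-15b-5p, 92.0 CPM for miR-15b-3p, 14.5 CPM for miR-195-5p, 13.8 CPM for miR-15a-5p and 7.67 CPM for miR-497-5p. The ranges of miR-195-5p (9.70 to 21.6 CPM) and miR-15a-5p (11.2 to 20.3 CPM) overlapped, so their order was not resolved. Mature miRNAs differ little in length, so CPM can be set side by side, as counts in the libraries and not as molecules per cell. Among all miRNAs by mean level, miR-16-5p ranked 41 and miR-497-5p 271 of 1707. The highest library exceeded the lowest by 1.46-fold for miR-15b-5p and by 2.22-fold for miR-195-5p, with the others in between.

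**Figure D1:**
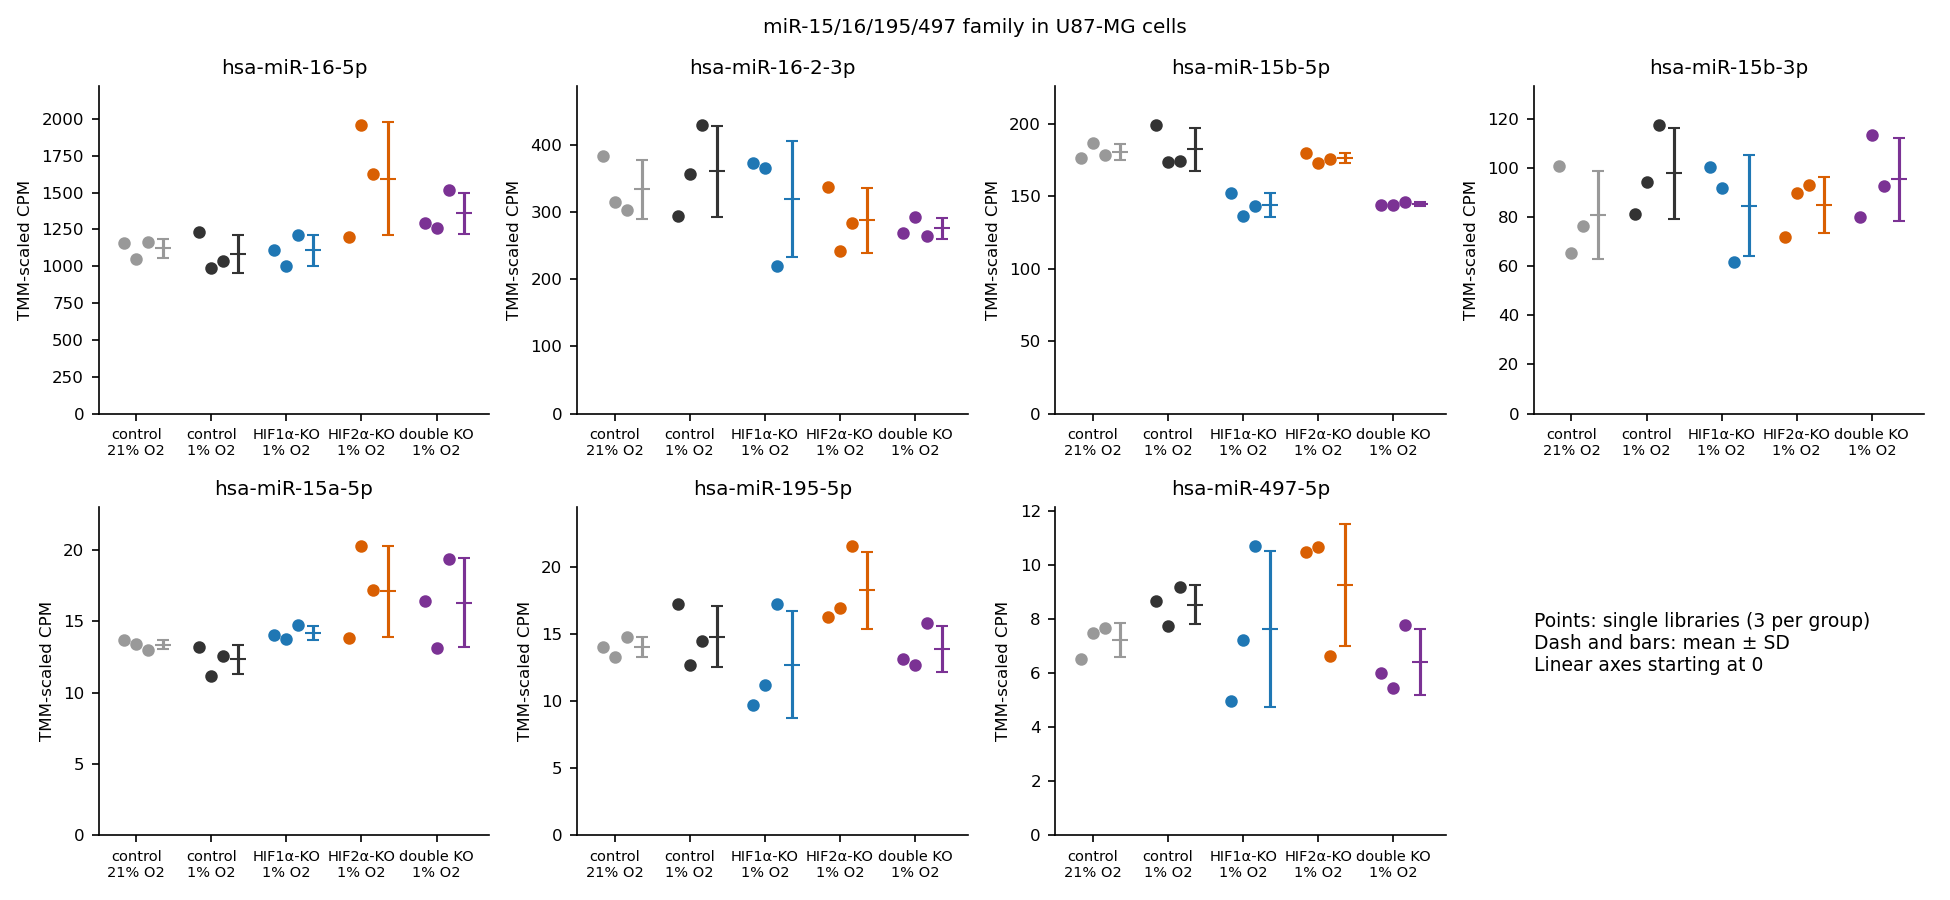
TMM-scaled CPM (vertical axes, linear from 0) of the 7 members in each library of the 5 groups, with the group mean and SD beside the points. The miR-15b-5p points of HIF1α-KO and HIF1α/HIF2α-KO cells lie between 136 and 152 CPM, under all other points of that panel, and the 2 highest miR-16-5p points belong to HIF2α-KO cells.

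None of the 7 members passed an adjusted p of 0.05 (edgeR, quasi-likelihood test, Benjamini-Hochberg over 562 miRNAs) in any of 6 comparisons. Without adjustment, p was under 0.05 for 1 member in HIF1α-KO against hypoxic control cells, 2 in HIF2α-KO, 2 in HIF1α/HIF2α-KO, 3 in HIF2α-KO against HIF1α-KO cells, 0 in hypoxic against normoxic control cells and 0 in the interaction of the knockouts. The share of all 562 tested miRNAs that passed the adjusted threshold was 1.25%, 0%, 7.30%, 1.07%, 0% and 0% in the same order, and the share with an unadjusted p under 0.05 was 11.7%, 14.8%, 24.4%, 17.3%, 6.05% and 10.1%. DESeq2 called 1 member, miR-15b-5p in HIF1α/HIF2α-KO cells, and limma on quantile-normalized values called 0. Groups did not overlap for 2, 1, 3, 1 and 1 members in the first 5 of these comparisons, beside 21.5%, 16.4%, 30.4%, 20.5% and 17.8% of all tested miRNAs. The 3 knockout groups and the normoxic group were compared with the same hypoxic control libraries, so these comparisons are not independent of each other.

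The median absolute log2 fold change of the members against hypoxic control cells was 0.20 in HIF1α-KO, 0.30 in HIF2α-KO and 0.33 in double knockout cells, beside 0.26, 0.26 and 0.33 for all miRNAs tested. In hypoxic against normoxic control cells it was 0.11 for the members and 0.22 for all miRNAs.

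miR-15b-5p, the 5p strand of the first chromosome 3 hairpin, was the member with the smallest range. It measured 177, 186 and 178 CPM in normoxic control libraries, 199, 174 and 174 CPM in hypoxic control libraries and 180, 173 and 176 CPM in HIF2α-KO libraries. In HIF1α-KO libraries it measured 152, 136 and 143 CPM, and in HIF1α/HIF2α-KO libraries 144, 144 and 146 CPM. Thus, in TMM-scaled CPM, each of the 6 libraries that lacked HIF1α lay below each of the 9 that did not. The libraries were grouped in this way after the values had been seen, and the share of all miRNAs separated likewise was not computed. Among the hypoxic libraries alone, 4.09% of all tested miRNAs were separated by the presence of HIF1α, in either direction and in the same scaling. As shares of total counts the miR-15b-5p sets overlapped. HIF1α-KO replicate 1 had 1867 of 11559913 counts, a larger share than the 1815 of 11534878 in HIF2α-KO replicate 2. Against hypoxic control cells the edgeR log2 fold change was -0.34 (SE 0.11, adjusted p = 0.193) in HIF1α-KO cells and -0.33 (SE 0.11, adjusted p = 0.0781) in HIF1α/HIF2α-KO cells. Without HIF1α-KO replicate 3 the HIF1α-KO value was also -0.33 (adjusted p = 0.392). Leaving out hypoxic control replicate 1, the highest library, gave -0.24 in HIF1α-KO and -0.25 in HIF1α/HIF2α-KO cells. In HIF1α/HIF2α-KO against hypoxic control cells DESeq2 gave -0.32 with an adjusted p of 0.0252, so the call depended on the tool. Over all alternatives for that comparison the adjusted p ranged from 0.0252 to 0.739. In HIF2α-KO cells the log2 fold change was -0.05 (95% interval -0.30 to 0.19, adjusted p = 0.902), and HIF2α-KO exceeded HIF1α-KO cells by 0.29 (SE 0.11, adjusted p = 0.209). With total counts the last difference was 0.11.

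The other strand of the same hairpin, miR-15b-3p, did not show the same arrangement. Its 15 values lay between 61.7 and 118 CPM, and the groups overlapped in each comparison. The largest of its log2 fold changes against hypoxic control cells was -0.21 (SE 0.22, adjusted p = 0.811), in HIF1α-KO cells, and it was -0.02 without HIF1α-KO replicate 3. Within a library, the ratio of miR-15b-5p to miR-15b-3p counts spanned 1.26 to 2.84 and overlapped between all groups compared. The smallest exact permutation p over the 5 comparisons of this ratio was 0.3 (two-sided, adjusted p = 0.625), where 3 libraries against 3 cannot give less than 0.1.

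miR-16-5p, which can come from either miR-16 hairpin, had its highest values in HIF2α-KO libraries. It measured 1158, 1047 and 1163 CPM in normoxic control libraries, 1232, 986 and 1038 CPM in hypoxic control libraries and 1112, 1002 and 1210 CPM in HIF1α-KO libraries. It measured 1198, 1961 and 1628 CPM in HIF2α-KO libraries and 1297, 1263 and 1518 CPM in HIF1α/HIF2α-KO libraries. The HIF2α-KO range overlapped the hypoxic control range through replicate 1, and the HIF1α/HIF2α-KO range lay wholly above it. The study's supplementary list of differing miRNAs gave miR-16-5p as up in HIF2α-KO cells, without a stated test or threshold. No other member was in its lists for the single knockouts. The edgeR log2 fold change against hypoxic control cells was 0.56 (SE 0.16, adjusted p = 0.129) in HIF2α-KO cells, 0.32 (SE 0.16, adjusted p = 0.241) in HIF1α/HIF2α-KO cells and 0.03 (SE 0.16, adjusted p = 0.994) in HIF1α-KO cells. HIF2α-KO exceeded HIF1α-KO cells by 0.53 (SE 0.16, adjusted p = 0.0980).

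These HIF2α-KO values rested on how 1 library was treated. Without HIF2α-KO replicate 1, the miR-16-5p log2 fold change was 0.71 against hypoxic control cells (edgeR, adjusted p = 0.0261) and 0.65 against HIF1α-KO cells (adjusted p = 0.0471), both past the threshold. Without HIF2α-KO replicate 2, the highest library, they were 0.36 and 0.30. When libraries were scaled to total counts, without the composition factor that was lowest in the HIF2α-KO libraries, the log2 fold changes were 0.41 and 0.34.

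miR-16-2-3p, the 3p strand of the chromosome 3 miR-16 hairpin and the strand that identifies this locus, was not higher where miR-16-5p was. It measured 295, 358 and 430 CPM in hypoxic control libraries, 337, 242 and 284 CPM in HIF2α-KO libraries and 269, 294 and 264 CPM in HIF1α/HIF2α-KO libraries. The last group lay below each hypoxic control library by a narrow margin, with a log2 fold change of -0.39 (SE 0.20, adjusted p = 0.271) that was -0.22 without hypoxic control replicate 3. As shares of total counts the miR-16-2-3p ranges of these groups overlapped. HIF1α/HIF2α-KO replicate 2 had 3874 of 12152529 counts, a larger share than the 3200 of 10620234 in hypoxic control replicate 1. In normoxic control libraries it ranged from 303 to 384 CPM. In HIF1α-KO libraries it measured 374, 366 and 220 CPM, the last in replicate 3. The log2 fold change of HIF1α-KO against hypoxic control cells was -0.17, and 0.04 without HIF1α-KO replicate 3. That of HIF2α-KO against HIF1α-KO cells was -0.15, and -0.42 without the same library. The ratio of miR-16-5p to miR-16-2-3p was 4.18, 2.76 and 2.41 in hypoxic control libraries and 4.81, 4.30 and 5.74 in HIF1α/HIF2α-KO libraries, which did not overlap (log2 difference 0.70, exact permutation p = 0.1, adjusted p = 0.333 over 5 comparisons). In HIF2α-KO libraries the ratio was 3.55, 8.11 and 5.73 and overlapped the control range. The 3p strand of the chromosome 13 hairpin, miR-16-1-3p, was present at 1.67 to 4.47 CPM and passed no comparison.

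miR-15a-5p, the neighbour of miR-16-1 on chromosome 13, measured 13.2, 11.2 and 12.6 CPM in hypoxic control libraries, 13.9, 20.3 and 17.2 CPM in HIF2α-KO libraries and 16.4, 13.1 and 19.3 CPM in HIF1α/HIF2α-KO libraries. The log2 fold change was 0.47 (SE 0.18, edgeR adjusted p = 0.263; 0.31 without HIF2α-KO replicate 2) in HIF2α-KO cells, whose libraries all lay above the control libraries, and 0.40 (SE 0.18, adjusted p = 0.183) in HIF1α/HIF2α-KO cells. In HIF1α-KO libraries (14.0, 13.8 and 14.7 CPM) miR-15a-5p also lay above the hypoxic control libraries, with a log2 fold change of 0.20 (SE 0.18, adjusted p = 0.756). Its 3p partner, miR-15a-3p, had 0 to 6 counts per library and was not tested.

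miR-195-5p and miR-497-5p come from the chromosome 17 pair. miR-195-5p measured 9.70, 11.2 and 17.3 CPM in HIF1α-KO and 16.3, 16.9 and 21.6 CPM in HIF2α-KO libraries, a log2 difference of 0.52 (SE 0.22, adjusted p = 0.242) with overlapping ranges. That difference was 0.30 without HIF2α-KO replicate 3 and 0.75 without HIF1α-KO replicate 3. Against hypoxic control cells (17.2, 12.7 and 14.5 CPM) its log2 fold change was -0.22 in HIF1α-KO cells (-0.49 without HIF1α-KO replicate 3 and -0.01 without HIF1α-KO replicate 1) and 0.30 in HIF2α-KO cells (0.11 without HIF2α-KO replicate 3). miR-497-5p ranged from 4.97 to 10.7 CPM, and its log2 fold change in HIF1α-KO cells was -0.16 (-0.47 without HIF1α-KO replicate 3 and 0.11 without HIF1α-KO replicate 1). It was the single member whose normoxic (6.50, 7.48 and 7.67 CPM) and hypoxic control libraries (8.66, 7.74 and 9.17 CPM) did not overlap, with a log2 fold change of 0.24 (SE 0.26, adjusted p = 0.841), while 17.8% of all tested miRNAs showed no overlap in that comparison. The 3p strand miR-195-3p had a log2 fold change of -0.61 (SE 0.19, adjusted p = 0.0591) in HIF1α/HIF2α-KO cells.

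**Figure D2:**
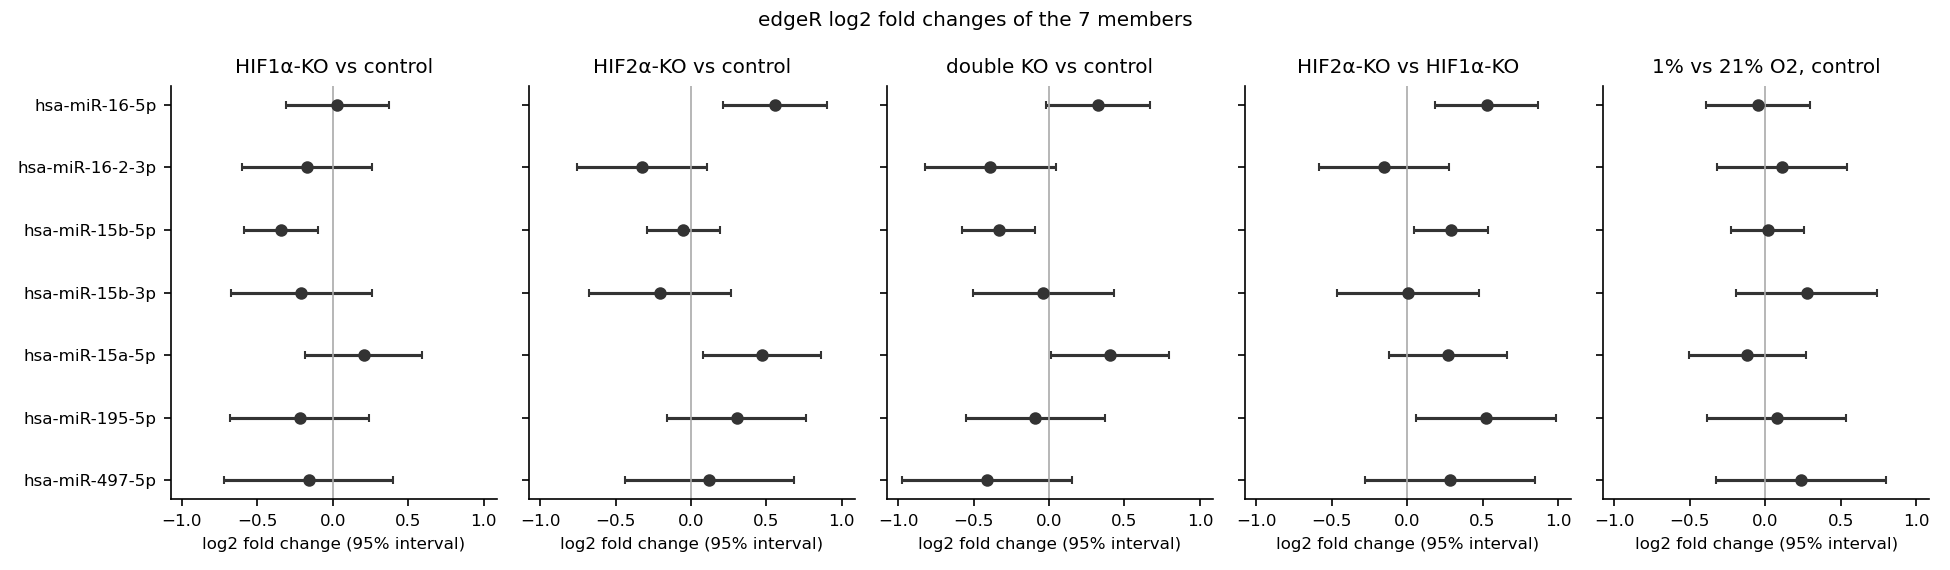
edgeR log2 fold changes (horizontal axes) of the 7 members with 95% intervals in 5 comparisons, none of which passed an adjusted p of 0.05. Intervals for miR-15b-5p lie below 0 in HIF1α-KO and HIF1α/HIF2α-KO cells, and those for miR-16-5p lie above 0 in HIF2α-KO against control and against HIF1α-KO cells.

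Oxygen alone moved no member past the threshold. Between hypoxic and normoxic control cells the log2 fold change of miR-16-5p was -0.05 (95% interval -0.39 to 0.29) and that of miR-15b-5p was 0.02 (95% interval -0.23 to 0.26). miR-210-3p, the best known miRNA induced by hypoxia, also did not separate these groups, with 1188 ± 151 CPM in normoxia and 1042 ± 109 CPM in hypoxia (mean ± SD, n = 3). It was 309 ± 110 CPM in HIF1α-KO and 225 ± 108 CPM in HIF1α/HIF2α-KO cells, with log2 fold changes against hypoxic control cells of -1.76 (adjusted p = 0.0149, with the call kept in 3 of 6 fits without 1 library) and -2.21 (adjusted p = 0.00413). The interaction term, which asks whether both knockouts together differ from the sum of the single ones, lay between -0.37 and 0.37 for the 7 members, with adjusted p of at least 0.768.

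Ratios of 2 members within a library do not depend on how libraries are scaled. The ratio of miR-16-5p to miR-15b-5p was 6.56, 5.62 and 6.52 in normoxic control libraries and 6.18, 5.68 and 5.96 in hypoxic control libraries. It was 7.30, 7.36 and 8.43 in HIF1α-KO, 6.67, 11.3 and 9.25 in HIF2α-KO and 9.02, 8.79 and 10.4 in HIF1α/HIF2α-KO libraries. Each of the 9 knockout libraries was therefore above each of the 6 control libraries. How often other pairs of miRNAs separate the libraries in this way was not examined. The ratio also combines the miR-16-5p and miR-15b-5p levels described above and is not a separate observation. The log2 ratio exceeded that of hypoxic control cells by 0.37 (SE 0.08) in HIF1α-KO, 0.58 (SE 0.23) in HIF2α-KO and 0.66 (SE 0.08) in HIF1α/HIF2α-KO cells. Each of these differences had a two-sided exact permutation p of 0.1, the smallest possible for 3 libraries against 3 in this test (adjusted p = 0.167 over 5 comparisons). HIF2α-KO and HIF1α-KO cells overlapped (log2 difference 0.21, exact permutation p = 0.5), as did hypoxic and normoxic control cells (-0.07, exact permutation p = 0.5).

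The miR-15 members of the chromosome 13 and chromosome 3 pairs were ordered in a similar way. The ratio of miR-15a-5p to miR-15b-5p was 0.0646 to 0.0776 in the 6 control libraries and 0.0773 to 0.132 in the 9 knockout libraries, which overlapped only through HIF2α-KO replicate 1 and normoxic replicate 1. Against hypoxic control cells the log2 differences were 0.55 (SE 0.07) in HIF1α-KO, 0.51 (SE 0.18) in HIF2α-KO and 0.72 (SE 0.16) in double knockout cells, each without overlap (exact permutation p = 0.1, adjusted p = 0.167). The ratio of miR-195-5p to miR-497-5p differed from hypoxic control cells without overlap in HIF1α/HIF2α-KO cells alone (log2 difference 0.33, SE 0.12, exact permutation p = 0.1, adjusted p = 0.5).

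The miR-16-5p to miR-15b-5p ratio was also read within the sets of libraries with higher and lower miR-126. In the higher set the ratio was 6.18 in the hypoxic control library, 8.43 in the HIF1α-KO library, 6.67 and 9.25 in the HIF2α-KO libraries and 9.02 and 8.79 in the HIF1α/HIF2α-KO libraries. In the lower set it was 5.68 and 5.96 in the hypoxic control libraries, 7.30 and 7.36 in the HIF1α-KO libraries, 11.3 in the HIF2α-KO library and 10.4 in the HIF1α/HIF2α-KO library. The knockout libraries were above the control libraries in both sets. Since every knockout library exceeded every control library, any split gives this order, so the sets are no test of it. With the set as a covariate, the miR-15b-5p log2 fold change was -0.34 in HIF1α-KO and -0.35 in HIF1α/HIF2α-KO cells.

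**Figure D3:**
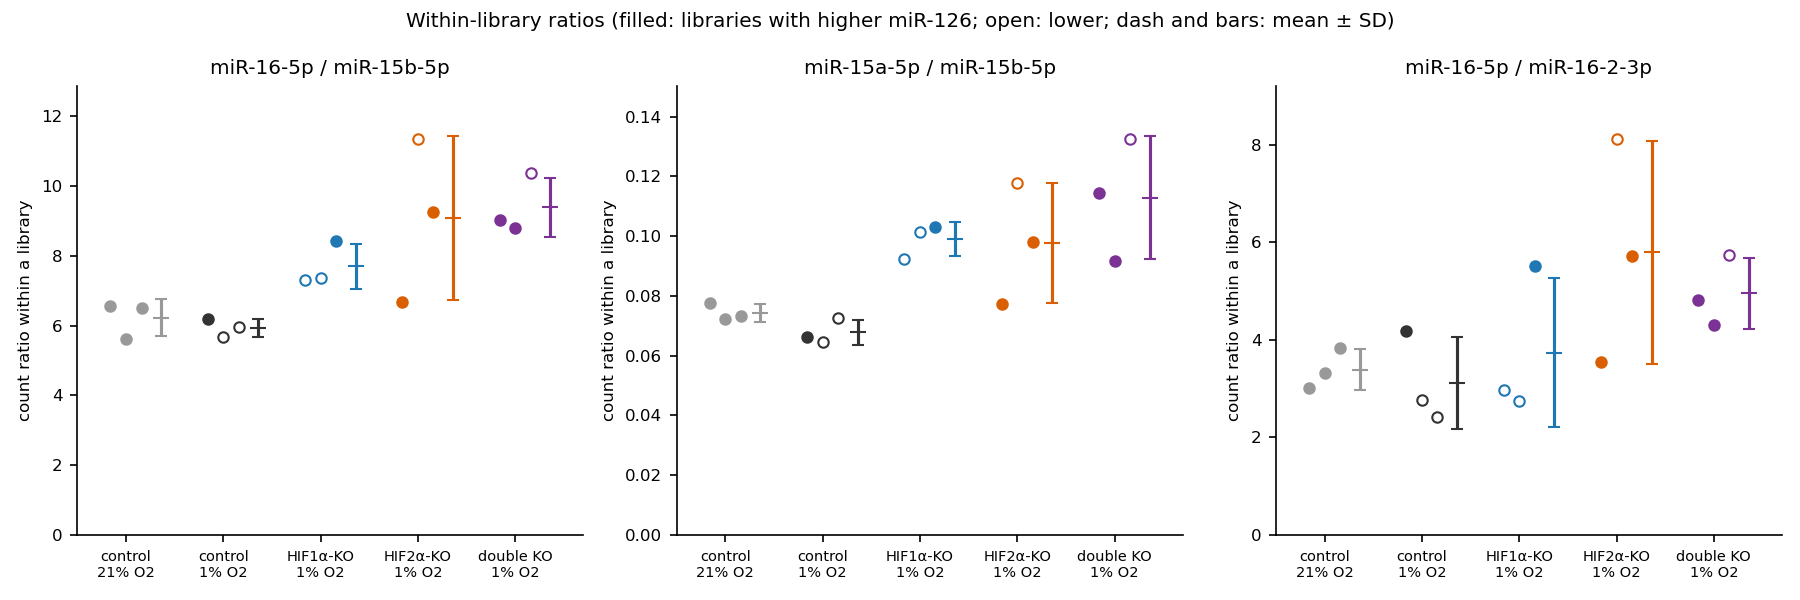
Count ratios of 2 members within each library (vertical axes, linear from 0) by group, with mean and SD, where filled points are libraries of the higher and open points of the lower miR-126 set. For miR-16-5p to miR-15b-5p the control libraries lie between 5.62 and 6.56 and the knockout libraries between 6.67 and 11.3.

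The 5p strands of the 5 members with the common seed were also summed. miR-424-5p (10.2 to 26.2 CPM) and miR-6838-5p have this seed too and are not in the sum. It was 1338 ± 60.5 CPM in normoxic control, 1303 ± 148 CPM in hypoxic control, 1286 ± 113 CPM in HIF1α-KO, 1816 ± 383 CPM in HIF2α-KO and 1540 ± 146 CPM in HIF1α/HIF2α-KO cells (mean ± SD, n = 3). miR-16-5p made up 83.2% ± 0.516 of this sum in hypoxic control and 88.2% ± 0.616 in HIF1α/HIF2α-KO cells, and miR-15b-5p made up 14.0% ± 0.517 and 9.43% ± 0.756. The HIF2α-KO sum ranged from 1418 to 2181 CPM and overlapped the hypoxic control range of 1191 to 1471 CPM.

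**Figure D4:**
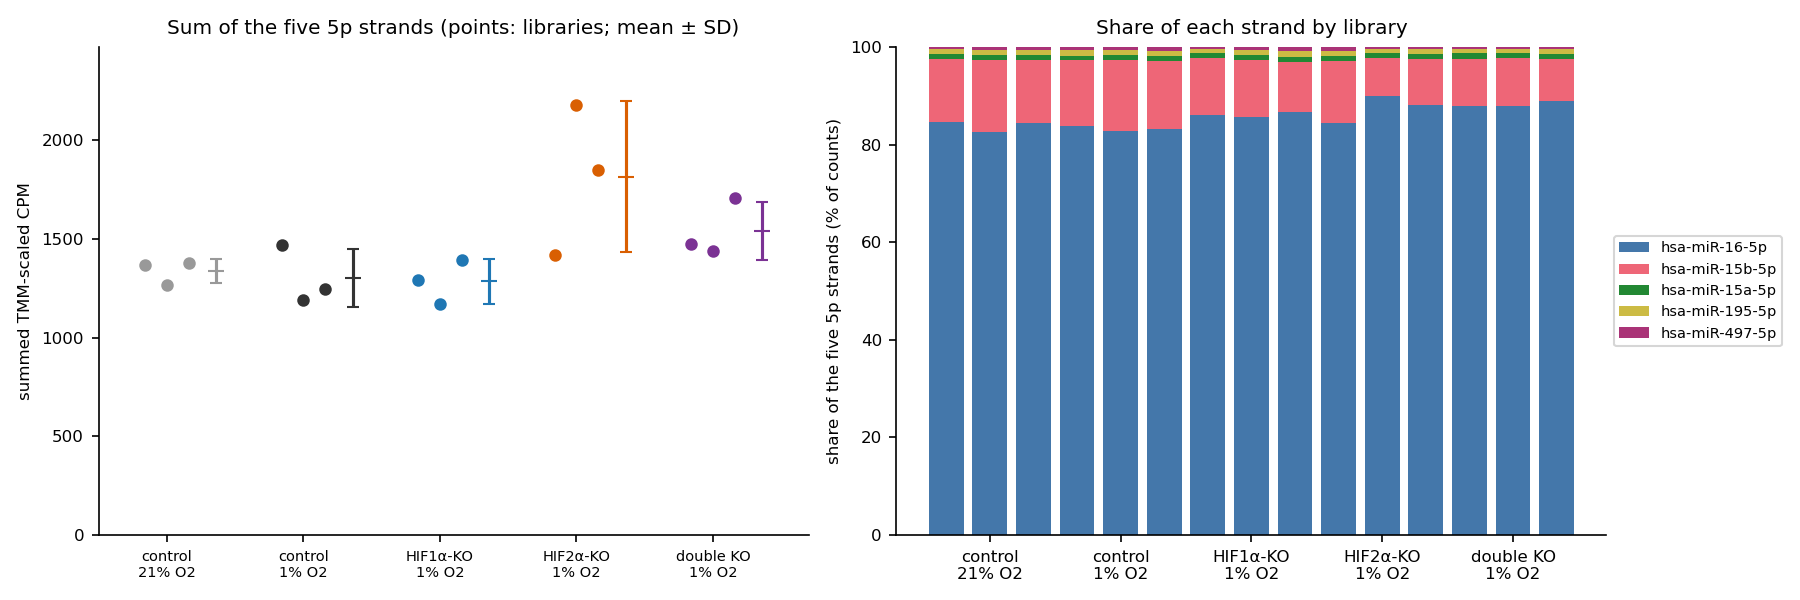
Summed TMM-scaled CPM of the 5p strands that share the seed, by library with group mean and SD (left), and the share of each strand in each library in percent of counts (right, 3 bars per group). The sum is highest in HIF2α-KO cells at 1816 ± 383 CPM, and miR-16-5p takes 82.6% to 89.9% of it in every library.

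Other miRNAs with the AGCAGC core near their 5′ end were examined from a list of 6, of which 4 were in the files and 3 were abundant enough to be tested. miR-103a-3p and miR-646 were not analysed here, and miR-6838-5p, which has the same seed as the family, had 0 to 3 counts. miR-503-5p and miR-424-5p are neighbours on the X chromosome and are extended members of the family, and miR-107 belongs to the miR-103/107 family, whose seed overlaps theirs.
hsa-miR-424-5p: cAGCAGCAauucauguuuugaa
hsa-miR-503-5p: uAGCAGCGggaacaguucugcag
These sequences show that miR-424-5p has the family seed, while miR-503-5p has AGCAGCG in its place. miR-503-5p passed the test in 2 of the 6 comparisons. It measured 64.2, 57.0 and 63.6 CPM in hypoxic control libraries and 34.1, 33.0 and 44.4 CPM in HIF1α-KO libraries, and fell by 0.73 on the log2 scale (SE 0.15, edgeR adjusted p = 0.0221). In 6 fits, each without 1 library, this value ranged from -0.87 to -0.62, and the call held only without HIF1α-KO replicate 3 (adjusted p = 0.00797, otherwise up to 0.269). In HIF1α/HIF2α-KO libraries it measured 45.2, 44.9 and 45.3 CPM, a log2 fold change of -0.45 (SE 0.15, adjusted p = 0.0751). It was higher in HIF2α-KO (66.0, 69.9 and 52.5 CPM) than in HIF1α-KO cells by 0.76 (SE 0.15, adjusted p = 0.0200), a difference of 0.62 to 0.85 and a call in 2 of 6 fits when 1 library was left out. As for miR-15b-5p, its 6 libraries without HIF1α all lay below the 6 hypoxic libraries with it in TMM-scaled CPM. In either direction, 4.09% of all tested miRNAs separated these libraries in that scaling. As shares of total counts the miR-503-5p sets overlapped. HIF1α/HIF2α-KO replicate 2 had 593 of 12152529 counts, a larger share than the 553 of 11726142 in HIF2α-KO replicate 3. miR-424-5p measured 17.2, 26.2 and 23.6 CPM in HIF2α-KO and 12.6, 11.4 and 10.2 CPM in HIF1α-KO libraries, a log2 difference of 0.97 (SE 0.23, adjusted p = 0.0590). miR-107 ranged from 1188 to 2182 CPM and passed none of the 6 comparisons. The study's lists gave miR-503-5p as down in HIF1α-KO and miR-424-5p as up in HIF2α-KO cells.

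Over the 15 libraries, the non-members with the pattern most like that of miR-16-5p were miR-106b-5p (Pearson r = 0.94, Spearman rho = 0.83), miR-34a-5p (r = 0.91, rho = 0.79) and miR-652-5p (r = 0.89, rho = 0.85). Those most like miR-15b-5p were miR-210-5p (r = 0.94, rho = 0.83), miR-455-3p (r = 0.89, rho = 0.88) and miR-210-3p (r = 0.88, rho = 0.75). These correlations of log2 CPM are descriptive, and the points share the 5 groups, the libraries and their scaling. Among the members themselves, the coefficients of miR-16-5p were highest with miR-15a-5p of the chromosome 13 pair (r = 0.89, rho = 0.71), near 0 with miR-15b-5p of the chromosome 3 pair (r = 0.0088, rho = -0.09) and negative with miR-16-2-3p (r = -0.68, rho = -0.81).

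After none of the 6 comparisons had called a member and the low miR-15b-5p values of both HIF1α-lacking groups had been seen, 2 further contrasts were run, which makes 8 in all. Each pooled the 12 hypoxic libraries into 6 without and 6 with 1 factor. They reuse the libraries described above and are therefore no independent evidence, and their p-values are adjusted over 562 miRNAs but not over the contrasts or for this choice. Without HIF1α, miR-15b-5p was the 1 of 7 members past the threshold (log2 fold change -0.31, SE 0.08, edgeR adjusted p = 0.0286), where 7.30% of all miRNAs passed. Its groups did not overlap in TMM-scaled CPM, as for 4.09% of all miRNAs. Without HIF2α, miR-16-5p was the 1 of 7 (log2 fold change 0.43, SE 0.11, adjusted p = 0.0487), where 4.27% of all miRNAs passed and 1.42% had groups without overlap, and its own groups overlapped. Of 42 counts of called members under alternative settings, 30 fell to 0, while the log2 fold changes kept their sign, from -0.31 to -0.19 for miR-15b-5p and from 0.31 to 0.50 for miR-16-5p. With a replicate block or only the libraries compared they were -0.31 and -0.31 for miR-15b-5p and 0.42 and 0.43 for miR-16-5p, without the calls. For miR-15b-5p the adjusted p ranged from 0.000942 to 0.628 over these settings, and for miR-16-5p from 0.0116 to 0.167.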

How the data were processed

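The authors deposited raw whole-number counts per mature miRNA for each of the 15 libraries. The aligner, counting tool and genome build of these counts are not given in the sources used here, and the submitters' processing notes name HISAT2, StringTie and DESeq2 without roles. The quantile normalization of limma named in the study's supplementary methods is not part of the deposited values.

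Libraries were grouped by the genotype, oxygen and replicate number in their labels, which give no batch. Counts were analysed in R 4.3.3 with edgeR 4.0.16. The 562 miRNAs kept by filterByExpr were scaled with TMM and fitted in 1 quasi-likelihood model of all 15 libraries with robust dispersions, and each comparison was a contrast with Benjamini-Hochberg adjustment over 562 miRNAs. Ratios used counts plus 0.5 and two-sided exact permutation tests. DESeq2 1.42.0, limma 3.58.1 and other settings were alternatives. No replicates were copies, since the smallest chi-square per degree of freedom between 2 replicates was 49.3. At these depths 3 counts equal at most 0.285 CPM, a floor that covers counting error only. The fits were tested on simulated data.

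The miRNAs named were the 7 members, other arms of their hairpins, a list of 6 relatives, miR-210-3p, marker miRNAs, and the 3 non-members most correlated with miR-16-5p and with miR-15b-5p. The members and lists were chosen with earlier results of these data known. miR-497-3p and miR-122-5p were listed too and were not analysed here. Beyond the 6 comparisons, 2 contrasts were added after the values had been seen.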

Additional observations from a re-analysis of the deposited data

How the results depend on the processing

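Of 672 log2 fold changes of members recomputed under alternatives for the 6 comparisons, 632 kept their direction and side of the threshold, 3 passed it and 37 changed sign. Leaving out 1 library turned the sign of the difference in 8 of 25 ratio comparisons. None of them compared miR-16-5p or miR-15a-5p with miR-15b-5p between a knockout and hypoxic control cells. There the groups did not overlap, so leaving out 1 library could not turn the sign. The count of called members stayed at 0 in 93 of 96 values. The exceptions were 1 with DESeq2 in HIF1α/HIF2α-KO cells and 1 without HIF2α-KO replicate 1 in each HIF2α-KO comparison, giving a leave-one-out range of 0 to 1. The causes were not tested.

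Counts over all miRNAs moved more. For HIF1α-KO the 7 calls became 12 with DESeq2, 0 with only the libraries compared and 2 to 6 when 1 replicate was left out. For HIF2α-KO the 0 calls became 8 without a filter and 0 to 11 on leaving out a replicate. For HIF1α/HIF2α-KO the 41 calls became 14 to 32 in the same way. Between the single knockouts the 6 calls became 13 with total counts, 20 with DESeq2, 11 without a filter, 2 with only the libraries compared and 2 to 17 without 1 replicate. The interaction had 2 calls without a filter.

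Deviations of same-numbered libraries correlated between -0.64 and 0.61. The values were all positive between HIF2α-KO and hypoxic control cells (0.095 to 0.50). They were all negative between hypoxic and normoxic control cells (-0.29 to -0.065). Libraries with different numbers were not compared in this way, so pairing by replicate number was not settled. With a replicate block the 6 calls between the single knockouts became 3, no member was called in any of the 6 comparisons, and the miR-15b-5p log2 fold change in HIF1α/HIF2α-KO cells was -0.33.

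Sign changes concerned small log2 fold changes. In HIF2α-KO cells, miR-497-5p was -0.0093 with total counts (-0.012 to 0.25 without 1 replicate) and miR-15b-5p ranged from -0.11 to 0.018. In HIF1α/HIF2α-KO cells, miR-15b-3p was 0.032 with total counts and 0.071 with the miR-126 set (-0.15 to 0.14 without 1 replicate), and miR-195-5p was 0.021 with limma (-0.17 to 0.050). Between the single knockouts, miR-15b-3p was -0.18 with total counts, -0.12 with limma, -0.00039 with DESeq2, -0.083 without a filter and -0.049 with only the libraries compared (-0.24 to 0.12). Between hypoxia and normoxia, miR-15b-5p was -0.0011 with DESeq2 size factors, -0.046 with limma and -0.0020 with DESeq2 (-0.060 to 0.038), miR-16-2-3p was -0.017 with the miR-126 set (-0.043 to 0.23), miR-195-5p was -0.016 with limma (-0.054 to 0.16) and miR-16-5p ranged from -0.16 to 0.0036. Without 1 replicate in HIF1α-KO cells, miR-16-5p ranged from -0.032 to 0.16, miR-16-2-3p from -0.27 to 0.040 and miR-497-5p from -0.47 to 0.11. In the interaction, miR-15b-5p ranged from -0.019 to 0.10, miR-16-2-3p from -0.072 to 0.25 and miR-195-5p from -0.38 to 0.12.

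In the added contrast for HIF1α, the 1 called member became 0 with total counts, without a filter, with a replicate block and with only the libraries compared, and 0 to 1 without 1 replicate. All calls there became 27 without a filter, 27 with only the libraries compared and 16 to 40 without 1 replicate. miR-15b-3p was 0.10 with total counts, 0.039 with limma and 0.037 without a filter (-0.070 to 0.091), miR-16-5p 0.024 (-0.16 to 0.0056) and miR-16-2-3p 0.00058 (-0.16 to 0.0035) with total counts. In the added contrast for HIF2α, the 1 called member became 0 with DESeq2 size factors, total counts, limma, a replicate block, the non-robust fit and only the libraries compared, and 0 to 1 without 1 replicate. All calls there became 10 with a replicate block, 14 with the non-robust fit, 10 with only the libraries compared and 7 to 41 without 1 replicate. miR-15b-3p was 0.092 with the miR-126 set (-0.15 to 0.070 without 1 replicate), miR-15b-5p ranged from -0.072 to 0.0082 and miR-497-5p from -0.18 to 0.052. miR-497-5p, with 61 to 179 counts per library, was the member most limited by counting error.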
